A study of Mus musculus with 6 samples.

Results

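Cytochrome P450 and glutathione transferase genes encode the enzymes that oxidise, and then couple to glutathione, drugs, toxins, steroids, bile acids and lipids. The members were all probes whose platform gene symbol is Cyp followed by a number, or Gsta, Gstm, Gstp, Gstt, Gstk, Gsto or Gstz followed by a number. This gave 120 probes for 90 genes, 70 of them P450 genes and 20 glutathione transferase genes, out of 15123 named genes and 30649 features in all. No gene was filtered out, so all 90 were tested.

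Mice homozygous for a germline Kit K641E allele, which per the design text still carries a Neo insert, were compared with Kit wt/wt littermates at postnatal day 14. The tissue was the antrum, the stretch of stomach before the pylorus. Kit encodes a receptor tyrosine kinase needed by interstitial cells of Cajal, which pace gut movement, and K641E is an activating mutation found in gastrointestinal stromal tumours. There were 3 littermate pairs, each on a pair of dye-swapped arrays, which makes 6 arrays with probes of 70 bases. The change is germline, so every cell of the mutant antrum carried it.

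Every value is a log2 ratio of an array's channels, turned so that it is likely Kit K641E over Kit wt/wt. Base 2 is assumed, and every fold given rests on it. The pair is the replicate, and a mean over pairs is given with limma's SE (n = 3). Ratios do not show how strongly a gene is expressed, so neither the antral identity of the pieces nor which of these enzymes the antrum expresses could be checked. Over pairs 1, 2 and 3, Kit itself had -0.02, 1.89 and 0.81. The Y-linked gene Eif2s3y had -0.03, -0.05 and -5.06, and Kdm5d, also Y-linked, had 0.22, -0.15 and -1.95. The littermates of pair 3 thus differed in Y-linked transcripts, which were likely lower in the mutant. In that pair, genotype cannot be told apart from this difference. The p-values measure only the spread among these 3 pairs.

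Cytochrome P450 enzymes are haem proteins of the endoplasmic reticulum or mitochondria that insert an oxygen atom into their substrate, with electrons passed on by Por or by ferredoxin. Families 1 to 4 handle foreign compounds and fatty acids, while the others mostly act at fixed steps of steroid, bile acid, vitamin D and retinoid metabolism. Many of the mouse Cyp2c, Cyp2d, Cyp3a and Cyp4a genes are known best from the liver. Glutathione transferases are mostly soluble enzymes, and the alpha and mu classes are made in the liver and in many epithelia of the gut.

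Several P450 genes stood well above 0 in pairs 2 and 3 and below 0 in pair 1, while the glutathione transferases stayed within 1 log2 unit of 0 in every pair. In pair 2, 13 of the 90 members (14.4%) had a log2 ratio of at least 1, against 1.1% of all features. In pair 3 there were 6 (6.67%) against 0.711%, and in pair 1 there were 0 against 0.261%. All of these were P450 genes. At -1 or less there were 0 in pairs 1 and 2, against 0.489% and 0.153% of features, and 1 in pair 3, Cyp2b10, against 0.196%. Among the 15123 named genes alone, 258 were at 1 or more in pair 2 and 170 in pair 3.

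**Figure D1:**
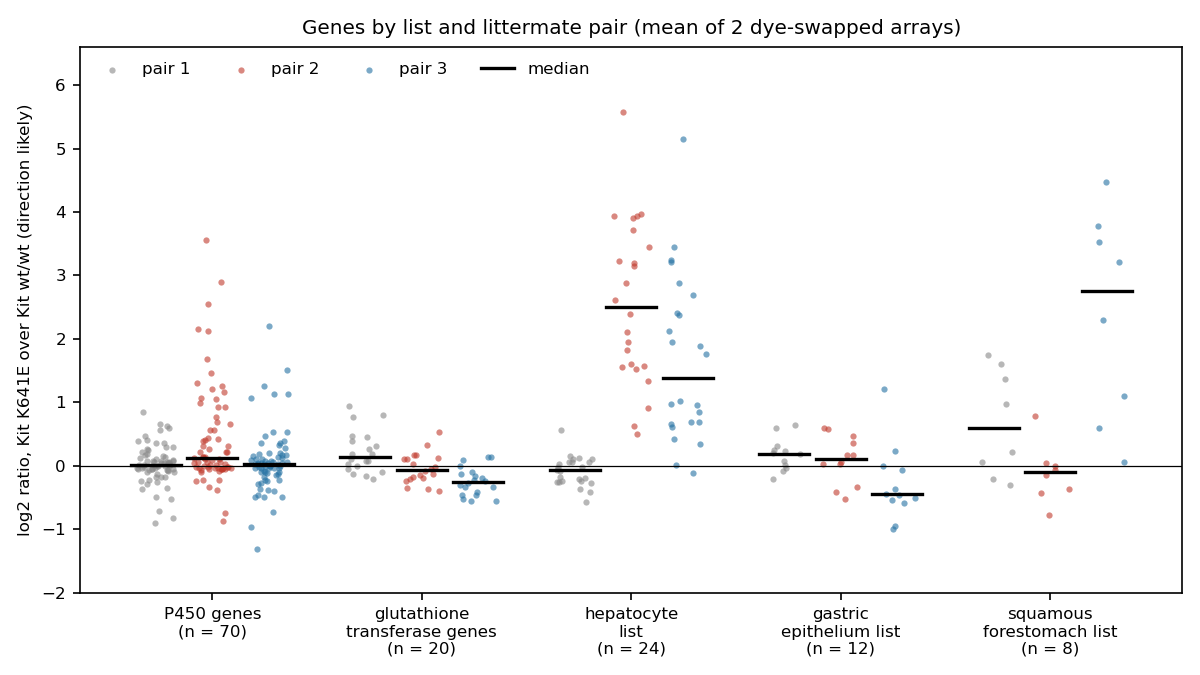
Log2 ratio (y axis) of each gene of 5 gene lists in each littermate pair, where a point is a gene, averaged over a pair's 2 arrays, and a bar is the list's median. P450 genes reach 3.56 in pair 2 and 2.20 in pair 3, glutathione transferase genes stay between -0.56 and 0.94, and the hepatocyte list has medians of -0.07, 2.50 and 1.39 in pairs 1, 2 and 3.

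No member passed over all 3 pairs. In the limma test over 30649 features, 0 of 90 members were higher and 0 lower at a Benjamini-Hochberg adjusted p of 0.05, with 0.00653% of all features called higher and 0% lower. The lowest adjusted p of a member was 0.923. The mean was above 0 for 58 of 90 members, 48 of 70 P450 genes and 10 of 20 glutathione transferases, against 52.1% of all features. At an unadjusted 0.05, 6 members (6.67%) were higher and 4 (4.44%) lower, against 2.74% and 2.16% of features. The P450 genes had a median of 0.08 and the glutathione transferases -0.002, against 0.003 for all features. The P450 median was 0.03 without pair 2, and the glutathione transferase median was -0.17 without pair 1.

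Cyp2e1, the ethanol-oxidising enzyme, had the highest mean of all members. Its log2 ratios, with the mutant in Cy5 first, were -0.57 and -0.46 in pair 1, 3.60 and 3.51 in pair 2, and 2.26 and 2.15 in pair 3. The pairs thus lay far apart while the 2 arrays of each lay close together. The mean was 1.75 ± 0.87 (limma adjusted p 0.923), and base 2 gives 0.699-fold, 11.8-fold and 4.60-fold in the 3 pairs.

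Cyp2c70, which makes the muricholic acids of rodent bile, followed the same order of pairs. It had -0.94 and -0.72 in pair 1, 2.87 and 2.91 in pair 2, and 1.49 and 1.53 in pair 3. The main hepatic Cyp3a enzyme of mice, Cyp3a11, had -0.53 and -0.44, 2.62 and 2.47, and 1.34 and 0.92. For Cyp2c37, which oxidises arachidonic acid, the values were -0.90 and -0.89, 2.23 and 2.00, and 1.15 and 1.11. All 3 genes were negative on both arrays of pair 1 and positive on the other 4 arrays. Their means were 1.19 ± 0.79, 1.06 ± 0.64 and 0.78 ± 0.65, and none passed (limma adjusted p 0.923 for each). Single pairs set these means: without pair 2 they were 0.34, 0.32 and 0.12 (Cyp2e1 0.84), and without pair 1 they were 2.20, 1.84 and 1.62 (Cyp2e1 2.88).

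The pattern of at least 0.5 in pair 2, above 0 in pair 3 and below 0 in pair 1 was described after the values were seen. It was met by 10 of 70 P450 genes (14.3%) and by 0 of 20 glutathione transferases, against 1.78% of all features. Besides the 4 genes above these were Cyp1a2, Cyp27a1, Cyp2a12, Cyp2c29, Cyp2c50 and Cyp3a25. Cyp2a12, a bile acid and steroid hydroxylase of liver, had -0.22 and -0.23, 1.27 and 1.26, and 0.37 and 0.34 on the arrays of the 3 pairs. Cyp3a25 had -0.06 and -0.10, 1.42 and 1.52, and 0.53 and 0.53. Cyp2c50, an arachidonic acid epoxygenase, had -0.24 and -0.27, 1.39 and 1.22, and 0.49 and 0.46. These 3 genes had means of 0.47 ± 0.32, 0.64 ± 0.33 and 0.51 ± 0.33. Cyp1a2, the caffeine-oxidising enzyme of liver, had -0.07, 1.05 and 0.21.

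Transcripts of hepatocytes moved across the pairs in the same order as these genes. In a list of 27 plasma protein and liver enzyme genes that holds no member, 24 were measured, with medians of -0.07 in pair 1 (from -0.57 to 0.57), 2.50 in pair 2 (from 0.50 to 5.58) and 1.39 in pair 3 (from -0.12 to 5.14). Albumin, Alb, had -0.27, 5.58 and 5.14. The number above 0 was 9 of 24 in pair 1, 24 of 24 in pair 2 and 23 of 24 in pair 3. None passed, that is 0 of 24 (limma adjusted p at least 0.923). Of the other marker lists, exocrine pancreas had -2.36, -0.07 and 0.02, enterocytes 0.11, 0.03 and -0.06, interstitial cells of Cajal 0.24, 1.89 and 0.88, adipocytes -0.13, 0.07 and 0.21, and leukocytes -0.25, 0.31 and 0.24. An order with pair 1 lowest and pair 2 highest was thus not particular to hepatocyte genes. The Cajal cell and leukocyte lists had it, as did smooth muscle (-0.94, 0.29 and -0.65) and Kit itself. The part of hepatocyte RNA in the P450 values was not tested. In whole tissue, more cells of a type cannot be told apart from more RNA per cell.

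Across the 70 P450 genes, pairs 2 and 3 had Pearson's r = 0.84 and Spearman's rho = 0.66, against 0.45 and 0.20 over all features. The 24 hepatocyte genes gave 0.96 and 0.95, and the 20 glutathione transferases 0.18 and 0.21. Between pairs 1 and 2 the P450 genes had r = -0.26 and rho = -0.06, against -0.08 and -0.14 over all features. Between pairs 1 and 3 they had r = -0.28 and rho = -0.08, against 0.11 and 0.03. These describe genes, many of them relatives that may share probes' targets, and genes are not independent replicates.

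**Figure D2:**
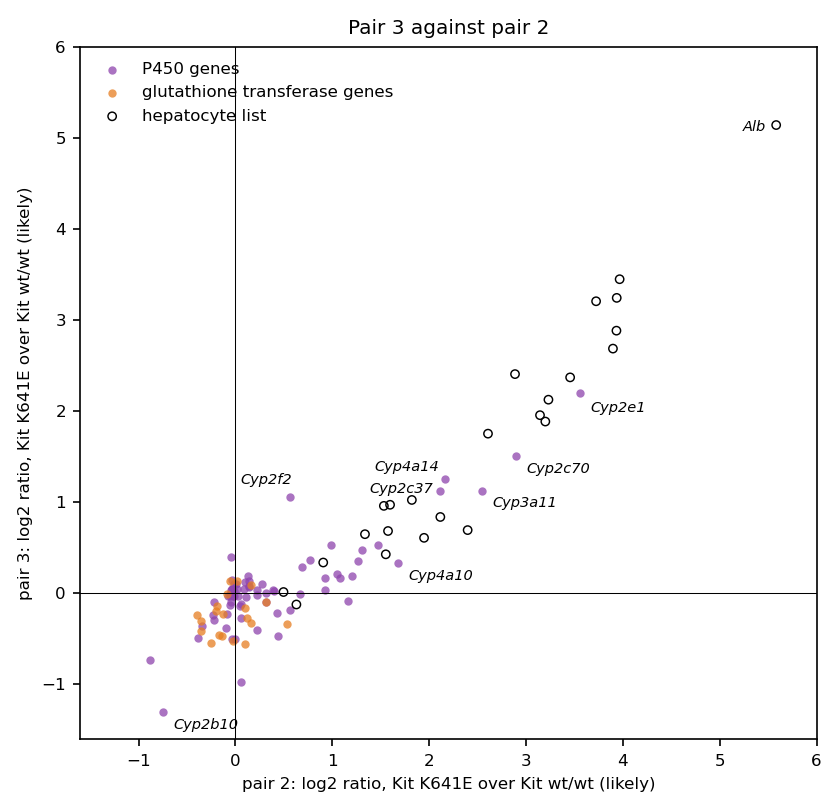
Log2 ratio in pair 3 (y axis) against that in pair 2 (x axis), where each point is a gene averaged over its pair's 2 arrays. P450 genes such as Cyp2e1 (3.56 and 2.20) run along the trail of the 24 hepatocyte genes, which ends at Alb (5.58 and 5.14), while glutathione transferases cluster near 0 and Cyp2b10 lies at -0.74 and -1.31.

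Neighbouring genes of a P450 cluster differed widely from each other. The Cyp2c genes of chromosome 19 are given in the order of the RefSeq table, whatever the distance between them. In pair 2, Cyp2c55 had 0.44, Cyp2c29 0.99, Cyp2c39 0.31, Cyp2c38 0.04 and Cyp2c40 0.27. Next in that order, Cyp2c37 had 2.12, Cyp2c54 0.68, Cyp2c50 1.31, Cyp2c70 2.89 and Cyp2c23 -0.09. Cyp2c55 ran against its neighbours, with 0.85 in pair 1 and -0.46 in pair 3. Cyp2c54 had -0.33 and 0.85 on the 2 arrays of pair 1, the widest gap within a pair among the members, so its mean of 0.41 ± 0.11 rests on arrays that disagree.

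Among the Cyp3a genes of chromosome 5, Cyp3a11, Cyp3a25 and Cyp3a41a had 2.55, 1.47 and 0.77 in pair 2. Cyp3a16 and Cyp3a44, close relatives, had -0.04 and 0.03, and Cyp3a13, which is made in gut as well as liver, had -0.34. In pair 3 the same 6 genes had 1.13, 0.53, 0.36, 0.05, -0.03 and -0.36.

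The probes of 1 gene could differ as much as neighbours did. Of 26 members with several probes, 4 had probe means more than 0.5 apart and 5 had probes of opposite sign. The 3 probes of Cyp3a25 had means of 0.27, 0.37 and 1.27, and in pair 2 they had 0.70, 1.03 and 2.68. Those of Cyp2c29, an abundant enzyme of mouse liver, had -0.02 and 2.00 in pair 2, and those of Cyp3a41a -0.06 and 1.61. Close relatives may bind each other's probes, and probe sequences were not used here, so values of single Cyp2c, Cyp3a, Cyp2a and Gsta genes are uncertain.

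**Figure D3:**
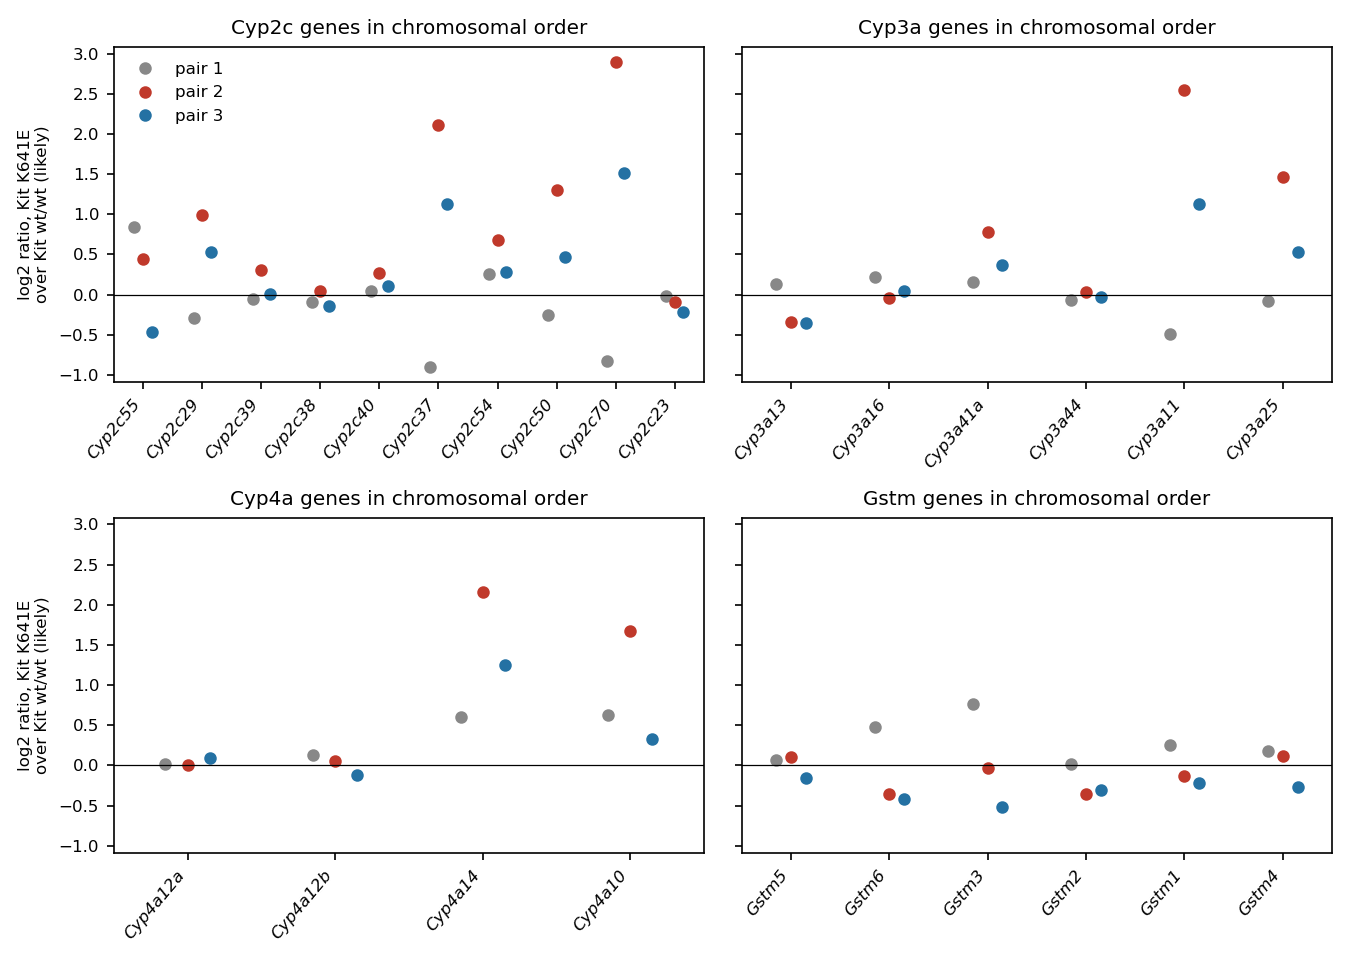
Log2 ratio (y axis) in pairs 1, 2 and 3 of the Cyp2c, Cyp3a, Cyp4a and Gstm genes, in their order along the chromosome. Pair 2 reaches 2.89 at Cyp2c70 and 2.55 at Cyp3a11 while Cyp2c38 (0.04) and Cyp3a44 (0.03) stay near 0, and the Gstm genes lie between -0.52 and 0.77.

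Promoter sequence was set beside these values, since some Cyp2a, Cyp2c and Cyp3a genes met the pattern of pairs given above while close relatives did not. RefSeq promoters (build GRCm38.p6, 300 bases, 250 of them before the start site) were found for 71 of the 90 members, 85 promoters in all. The letters CAAAGTCCA, a core bound by hepatocyte nuclear factor 4, a nuclear receptor of liver and gut epithelium, were searched on both strands. They occurred in 6 of 60 P450 promoters (10%), in 0 of 25 glutathione transferase promoters and in 156 of 32851 promoters in the table (0.475%). The 6 genes were Cyp2c40, Cyp2c70, Cyp3a11, Cyp3a16, Cyp3a41a and Cyp8b1. The motif was chosen with the gene values known, and relatives of 1 cluster share ancestry, so the count is a description.

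The 120 bases before the start site of 6 genes are printed 5′ to 3′ on the gene's strand, to show where this core lies in genes that were high in pair 2 (Cyp2c70, Cyp3a11, Cyp3a41a, Cyp8b1), in a relative that was not (Cyp3a16) and in the gene with the highest mean (Cyp2e1). Capitals mark CAAAGTCCA and the TATA box core TATAAA, on either strand; these matches do not overlap. In order they lie at chr19:40187287-40187406, chr5:145879855-145879974, chr5:145720137-145720256, chr5:145469724-145469843 and chr9:121916306-121916425, all on the minus strand, and chr7:140763699-140763818 on the plus strand.
Cyp2c70: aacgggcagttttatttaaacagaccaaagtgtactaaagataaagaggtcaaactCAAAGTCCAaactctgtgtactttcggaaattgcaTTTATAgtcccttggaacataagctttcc
Cyp3a11: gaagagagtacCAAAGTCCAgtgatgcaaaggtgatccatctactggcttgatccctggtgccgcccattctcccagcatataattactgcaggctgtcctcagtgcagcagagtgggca
Cyp3a41a: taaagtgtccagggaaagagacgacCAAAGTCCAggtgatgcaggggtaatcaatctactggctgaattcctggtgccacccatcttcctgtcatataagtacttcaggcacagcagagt
Cyp3a16: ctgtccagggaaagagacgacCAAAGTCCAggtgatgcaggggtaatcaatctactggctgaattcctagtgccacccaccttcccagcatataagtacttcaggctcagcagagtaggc
Cyp8b1: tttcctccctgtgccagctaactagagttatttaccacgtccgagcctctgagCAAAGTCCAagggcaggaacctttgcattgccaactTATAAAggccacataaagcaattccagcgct
Cyp2e1: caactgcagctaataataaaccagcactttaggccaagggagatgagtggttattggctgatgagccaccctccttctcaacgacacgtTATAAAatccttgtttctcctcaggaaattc

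The core ended 55 bases before the start in Cyp2c70, 58 in Cyp8b1, 86 in Cyp3a41a, 90 in Cyp3a16 and 100 in Cyp3a11, and these letters are not in the Cyp2e1 window. In pair 2 those genes had 2.89, 1.20, 0.77, -0.04, 2.55 and 3.56, and Cyp2c40, which also holds the core, had 0.27. The genes printed were picked for their ratios and for the core, so no relation between them can be read from this. The TATA box core was found in 23 of 60 P450 promoters (38.3%), in 3 of 25 glutathione transferase promoters (12%) and in 13.6% of the table. The half-site GTTAAT of hepatocyte nuclear factor 1 was in 5 of 60 (8.33%) and 1 of 25 (4%), against 7.1%. The antioxidant response element TGACNNNGC, read by Nrf2, was in 5 of 60 (8.33%) and 2 of 25 (8%), against 12.4%. GCGTG, the core read by the Ah receptor, was in 14 of 60 (23.3%) and 7 of 25 (28%), against 32.4%.

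Among P450 genes above 0 in every pair were the fatty acid hydroxylases Cyp4a14 and Cyp4a10, both targets of the fatty acid receptor PPAR alpha. Cyp4a14 had 0.56 and 0.63 in pair 1, 1.87 and 2.46 in pair 2, and 1.53 and 0.98 in pair 3, with a mean of 1.34 ± 0.33. Cyp4a10 had 0.59 and 0.66, 1.94 and 1.42, and 0.41 and 0.26, with a mean of 0.88 ± 0.30. Both were positive on all 6 arrays, as were 2 of the 24 hepatocyte genes, Apoa2 and Tat, and both were highest in pair 2. Their relatives Cyp4a12a and Cyp4a12b lay between -0.12 and 0.13 in every pair. None of the 4 passed (limma adjusted p at least 0.923).

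Cyp2f2, which activates naphthalene in the club cells of the mouse lung, was higher in pair 3 than in the other pairs. It had 0.42 and 0.36 in pair 1, 0.53 and 0.60 in pair 2, and 1.23 and 0.89 in pair 3. It was positive on all 6 arrays, and its mean of 0.67 ± 0.15 had the lowest unadjusted p of the members (0.0125), though its limma adjusted p was 0.923. The pair 3 values stood beside a median of 2.75 for 8 genes of the squamous forestomach, against 0.60 in pair 1 and -0.11 in pair 2. The part of squamous epithelium in the members' values was not tested.

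In all, 8 members (8.89%) were above 0 on all 6 arrays, against 3.87% of features, and 4 (4.44%) were below 0 on all 6, against 3.45%. The 8 also included Cyp2a4, Cyp2a5, Cyp2j5, Cyp3a41a and Cyp8b1, with means from 0.10 to 0.56. For Cyp3a41a this holds only for the average of its 2 probes. They had 0.41, -0.06 and -0.04, and -0.09, 1.61 and 0.76, in pairs 1, 2 and 3, so neither was above 0 throughout. A probe of Cyp2a4 had -0.02 in pair 1, and a probe of Cyp2a5 had -0.05 in pair 3. Cyp2a4 and Cyp2a5, a near-identical pair of steroid and coumarin hydroxylases, had 1.08 and 0.92 in pair 2 and no more than 0.25 in pairs 1 and 3.

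The members below 0 on all 6 arrays were Cyp2b10, Cyp2j9, Cyp7b1 and Gstt1. Cyp2b10, the phenobarbital-induced target of the receptor CAR, had the lowest mean. It had -0.45 and -0.29 in pair 1, -0.74 and -0.75 in pair 2, and -1.33 and -1.28 in pair 3, with a mean of -0.81 ± 0.20 (limma adjusted p 0.923). Its 2 probes gave -0.50 and -1.12, both negative in every pair. The relatives Cyp2b9, Cyp2b13 and Cyp2b19 lay between -0.05 and 0.22 in every pair. The CAR gene Nr1i3 had -0.11, 0.36 and 0.07.

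Cyp2j9, of the family that epoxidises polyunsaturated fatty acids, had -0.68 and -0.74 in pair 1, -0.25 and -0.20 in pair 2, and -0.38 and -0.21 in pair 3. Cyp7b1, the oxysterol hydroxylase, had -0.33 and -0.37, -0.27 and -0.18, and -0.14 and -0.05. The class theta enzyme Gstt1 had -0.22 and -0.19, -0.20 and -0.14, and -0.39 and -0.53. The 3 genes kept 1 sign but differed in which pair was lowest, pair 1 for Cyp2j9 and Cyp7b1 and pair 3 for Gstt1. Their means were -0.41 ± 0.12, -0.22 ± 0.07 and -0.28 ± 0.08, with a limma adjusted p of 0.923 each.

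**Figure D4:**
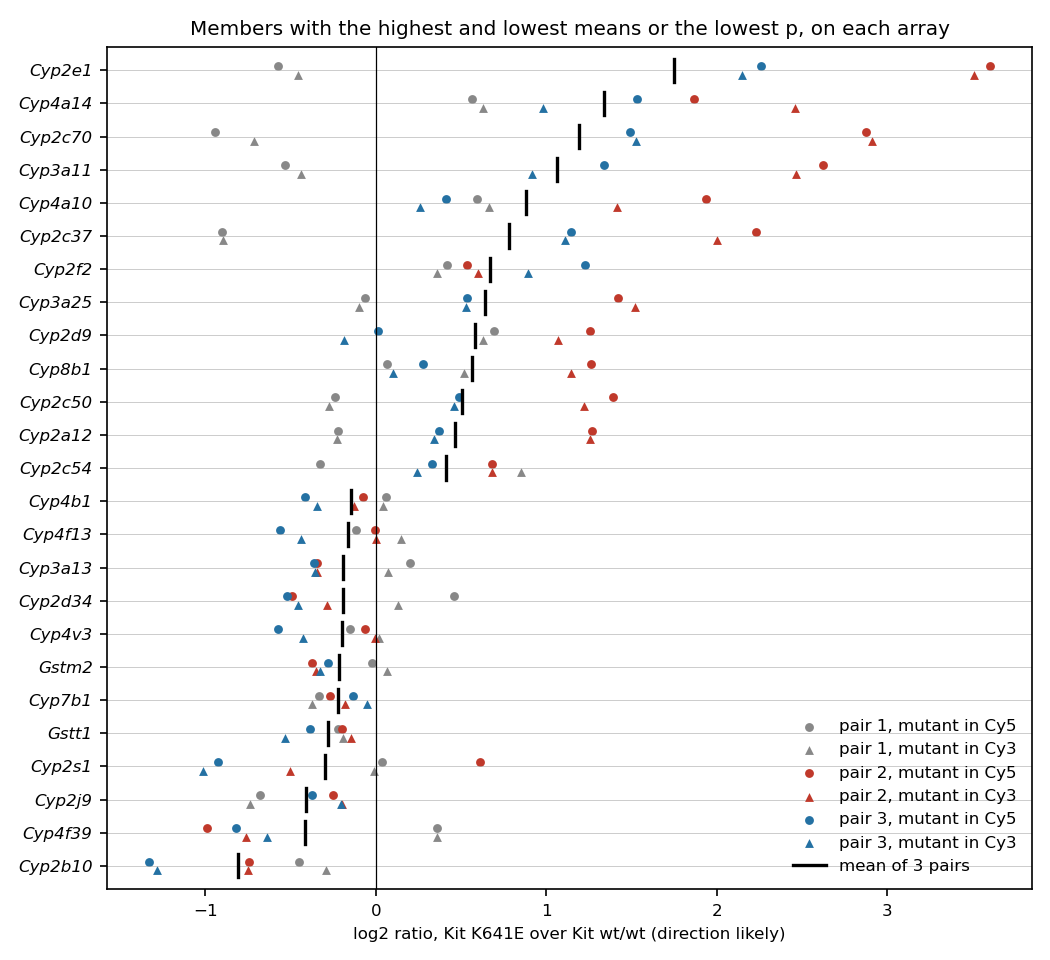
Log2 ratio (x axis) on each of the 6 arrays for the 25 members with the 12 highest means, the 12 lowest means or the 6 lowest p. Colours mark pairs, circles and triangles mark the mutant's dye, and black ticks mark the mean of 3 pairs, from 1.75 for Cyp2e1 to -0.81 for Cyp2b10; arrays of 1 pair mostly lie together and pair 1 lies apart from pair 2 for Cyp2e1, Cyp2c70, Cyp3a11 and Cyp2c37.

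Most of the other low P450 genes differed in sign between pairs, and Cyp4v3 was negative in all 3. Cyp4f39, the mouse counterpart of human CYP4F22, which builds the acylceramides of the skin barrier, had 0.36 and 0.36 in pair 1, -0.99 and -0.76 in pair 2, and -0.82 and -0.64 in pair 3. Cyp2s1, an enzyme of surface epithelia, had 0.04 and -0.01, 0.61 and -0.50, and -0.92 and -1.01. Without pair 3 its mean was 0.03, against -0.30 with all pairs. Cyp4b1, Cyp4f13, Cyp4v3, Cyp3a13 and Cyp2d34 had means from -0.20 to -0.14, each with its lowest pair value in pair 3. There Cyp4b1, which activates furans in the lung, had -0.42 and -0.35, Cyp4f13 -0.56 and -0.44, and Cyp4v3 -0.57 and -0.43, while their pair 1 and pair 2 arrays lay between -0.15 and 0.15. Cyp3a13 had 0.20 and 0.07 in pair 1, -0.34 and -0.34 in pair 2, and -0.36 and -0.36 in pair 3, and Cyp2d34 had 0.46 and 0.13, -0.49 and -0.28, and -0.52 and -0.46.

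The 5 Cyp2d genes, relatives of the human drug-metabolising CYP2D6, differed in their order of pairs. Cyp2d22 had -0.24, 0.56 and -0.18 in pairs 1, 2 and 3, with pair 2 highest and pair 1 lowest, as in the hepatocyte list. Cyp2d10 had 0.36, 0.43 and -0.22. Cyp2d9, a testosterone hydroxylase, had 0.69 and 0.63 in pair 1, 1.26 and 1.07 in pair 2, and 0.01 and -0.19 in pair 3, with a mean of 0.58 ± 0.27, and Cyp2d26 had 0.56, 0.22 and -0.41. Pair 3 was negative for all 5 Cyp2d genes, between -0.49 and -0.09. Cyp2d9 and Cyp4a12a are male-biased in adult mouse liver, and Cyp2b9, Cyp2c40 and Cyp3a44 female-biased. The 5 members so known as male-biased had medians of 0.07, 0.01 and -0.09 in pairs 1, 2 and 3, and the 7 female-biased 0.06, 0.22 and 0.10. The bias is that of adult liver, while the tissue here was antrum at postnatal day 14. The part of sex in these values was not tested, and the list of sex-biased members was drawn up with the values known.

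P450 genes of steroid, vitamin D and retinoid pathways lay close to 0. Cyp11a1, which starts steroid synthesis, Cyp11b2, the aldosterone synthase, Cyp17a1 and Cyp21a1 had means between 0.04 and 0.08. Cyp24a1 and Cyp27b1, which break down and activate vitamin D, had -0.03 and 0.07, and the retinoic acid hydroxylases Cyp26a1 and Cyp26b1 -0.02 and 0.01. Cyp2r1, a vitamin D 25-hydroxylase, had 0.17 ± 0.10. In all, 22 of 70 P450 genes (31.4%) stayed between -0.2 and 0.2 in every pair, as did 5 of 20 glutathione transferases (25%). The share of all features in this range was not counted. Ratios near 0 may stand for a transcript not expressed on either side.

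The bile acid genes were split. Cyp8b1, which sets the share of cholic acid, had 0.07 and 0.52 in pair 1, 1.26 and 1.15 in pair 2, and 0.28 and 0.10 in pair 3. The mitochondrial sterol hydroxylase Cyp27a1 had -0.18, 0.92 and 0.17. Cyp7a1, the rate-limiting enzyme of bile acid synthesis, had only 0.07, 0.31 and -0.09. Cyp39a1 had -0.17, 0.06 and -0.27, and Cyp46a1, the cholesterol hydroxylase of neurons, stayed between -0.05 and 0.03. Thus pair 2 was the highest for Cyp8b1, Cyp27a1, Cyp7a1 and Cyp39a1. Cyp51, the lanosterol demethylase of cholesterol synthesis, stood at 0.47 in pair 1, with 0.02 in pair 2 and 0.05 in pair 3.

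Of the 3 Ah receptor targets of family 1, Cyp1a2 stood at 1.05 in pair 2, as given above, and the others lay closer to 0. Cyp1a1 had 0.07, -0.05 and -0.03, and Cyp1b1 had 0.07, 0.13 and 0.19, with probes of opposite sign. The remaining Cyp2 genes Cyp2ab1, Cyp2g1, Cyp2j5, Cyp2j6, Cyp2j11 and Cyp2j13 had means between -0.14 and 0.15. Cyp4f14, Cyp4f15, Cyp4f16, Cyp4f18 and Cyp4x1 lay between -0.09 and 0.21, and among them Cyp4f18, a leukotriene hydroxylase of neutrophils, had 0.66 in pair 2.

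The glutathione transferases showed another order of pairs. Over pairs 1, 2 and 3 their median was 0.14, -0.07 and -0.25. In pair 1, 14 of 20 were above 0, against 15664 of 30649 features. In pair 3, 17 of 20 were below 0, against 15074 of 30649 features. By a pattern described after the values were seen, 13 of 20 (65%) were above 0 in pair 1 and below 0 in pair 3, against 24.8% of all features and 16 of 70 P450 genes (22.9%). The difference between these families was not tested. A fall from pair 1 to pair 3 was not particular to the transferases. Medians were 0.08, 0.01 and -0.24 for 36 further oxidising and hydrolysing enzymes, and 0.085, 0.03 and -0.15 for 16 cholesterol synthesis genes. For 31 conjugating enzymes they were 0.03, 0.02 and -0.06. The gastric epithelium list (12 genes) had medians of 0.19, 0.11 and -0.45 in the same pairs. The smooth muscle list (10 genes) did not fall in this way, with -0.94, 0.29 and -0.65. The part of tissue makeup in the glutathione transferase values was not tested.

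The class alpha enzymes, which also isomerise steroids and clear lipid peroxidation products, were led by Gsta1. It had 1.01 and 0.87 in pair 1, -0.002 and -0.40 in pair 2, and 0.01 and -0.40 in pair 3. Gsta2, a close relative, had 0.94 and 0.65, -0.04 and -0.35, and 0.05 and -0.32. In both genes the array with the mutant in Cy5 was the higher one in every pair, and in pairs 2 and 3 the gap between the arrays exceeded the pair's own value. Gsta3 had 0.45, -0.14 and -0.47, and Gsta4, which conjugates 4-hydroxynonenal, 0.31, -0.39 and -0.24. Pair 1 was the highest for all 4, and their means lay between -0.11 and 0.18.

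The class mu genes, 6 neighbours on chromosome 3, repeated this order in part. Gstm3 had 0.99 and 0.55 in pair 1, 0.07 and -0.12 in pair 2, and -0.38 and -0.66 in pair 3. Gstm6 had 0.47, -0.35 and -0.41, and Gstm1, an abundant enzyme of liver, 0.26, -0.13 and -0.22. Gstm2 had the lowest mean of the class, -0.21 ± 0.09, with -0.02 and 0.07 in pair 1, -0.37 and -0.35 in pair 2, and -0.28 and -0.33 in pair 3. Gstm4 and Gstm5 lay within 0.27 of 0 in each pair.

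**Figure D5:**
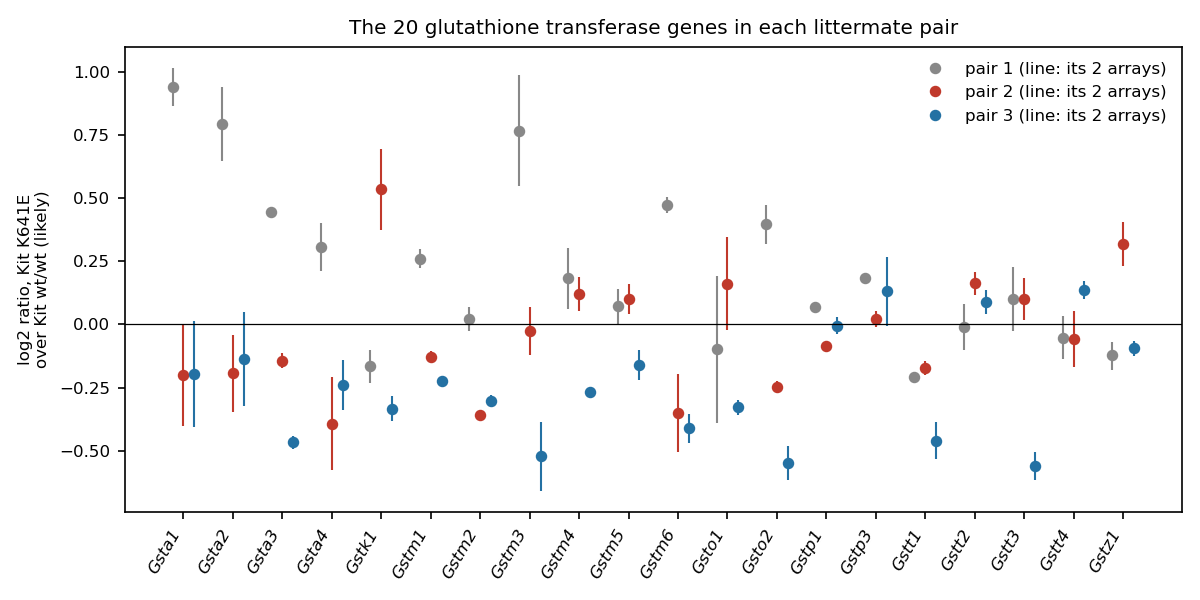
Log2 ratio (y axis) of the 20 glutathione transferase genes in pairs 1, 2 and 3, where a point is the mean of a pair's 2 arrays and the line spans those arrays. Pair 1 is highest for Gsta1 (0.94), Gsta2 (0.79) and Gstm3 (0.77), and pair 3 is lowest for Gstt3 (-0.56), Gsto2 (-0.55) and Gstm3 (-0.52).

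Among the other classes, Gsto2, a dehydroascorbate reductase, had 0.40, -0.25 and -0.55, and its neighbour Gsto1 -0.10, 0.16 and -0.33. Gstk1, of mitochondria and peroxisomes, was the only transferase at 0.5 or more in pair 2, with -0.17, 0.54 and -0.33. Gstz1, which degrades tyrosine as maleylacetoacetate isomerase, had -0.12, 0.32 and -0.09. The class pi gene Gstp1 stayed between -0.09 and 0.07, and Gstp3 between 0.02 and 0.18. Gstt3 had 0.10, 0.10 and -0.56, while Gstt2 and Gstt4 stayed within 0.16 of 0. Pair 3 was the lowest for Gsto1, Gsto2, Gstk1 and Gstt3.

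Electron donors, sensors and Nrf2 targets, which are linked to either family, had list medians from -0.04 to 0.10 over pairs. In single pairs these medians reached further from 0. Of 13 electron donors and haem enzymes listed, 9 were measured, and Por was not among them. None of the 9 passed, with 7 above and 2 below 0 and a median of 0.03. Hmox1, haem oxygenase, had 0.22 ± 0.11. Of 18 sensors, among them Nr1i3, Ahr and Hnf4a, 0 passed, 6 were above 0 and the median was -0.04. Ahrr, the Ah receptor repressor, had -0.18 ± 0.04 with -0.18, -0.18 and -0.17 in the pairs. Nfe2l2, which encodes Nrf2, had -0.17 ± 0.08. The 20 Nrf2 targets had 0.20, -0.08 and -0.03 in the 3 pairs, 15 above 0 and 0 called, with 0.76 ± 0.14 for the carbonyl reductase Cbr3 and 0.25 ± 0.05 for Prdx1. Pair 1 was thus the highest both for these and for the transferases.

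Other enzymes of foreign compound metabolism included a few with the order of pairs of Cyp2e1, unlike their lists as a whole. Of 36 further oxidising and hydrolysing enzymes, 0 passed and 19 were above 0, with a median of 0.02. Their medians in pairs 1, 2 and 3 were 0.08, 0.01 and -0.24. In pair 1, 24 of 36 were above 0, against 15664 of 30649 features. In pair 3, 27 of 36 were below 0, against 15074 of 30649 features. Fmo1, a flavin monooxygenase, had -0.32 ± 0.04 and was negative on all 6 arrays. Of 31 conjugating enzymes, 0 passed and 17 were above 0, with a median of 0.02, and the glucuronosyltransferase gene Ugt2b1 had 0.59 ± 0.13. The conjugating enzymes had medians of 0.03, 0.02 and -0.06 in the 3 pairs, with 21 of 31 below 0 in pair 3. Named after their values were seen, the sulfotransferase gene Sult2a2 had -0.69, 2.95 and 1.79 in the 3 pairs, the paraoxonase Pon1 -0.21, 1.90 and 1.30, and the carboxylesterase Ces1c -0.56, 1.91 and 1.01. Each of these was below 0 in pair 1 and highest in pair 2, as Cyp2e1 was.

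Of 31 glutathione metabolism genes, 0 passed and 17 were above 0, with a median of 0.03. Ptges, a prostaglandin E synthase related to the microsomal glutathione transferases, had 0.42, 0.45 and 0.42 in the pairs, a mean of 0.43 ± 0.04 (limma adjusted p 0.807). Ggt5, which cleaves leukotriene C4, had 0.14, 1.35 and 0.72. Of 18 thromboxane, prostacyclin and bile acid partners, 0 passed and 10 were above 0, and the bile acid ligase gene Slc27a5 had -0.09, 1.22 and 0.58. The 20 retinoid genes had a median of 0.01 and the 16 cholesterol synthesis genes -0.01, with 0 called in each. Among them the retinoid binder Crabp1 had -0.33 ± 0.07 and Hmgcs1 0.31 ± 0.08.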

How the data were processed

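Per the labels' protocols, antral RNA was amplified as aminoallyl antisense RNA and coupled to Cy5 or Cy3. The authors deposited 1 table of 38467 probes, read here as log2 ratios of the 2 channels; no source used here names the scanner, background correction or normalization. The largest size, 5.831, is above 4.8165, the log10 of a scanner's top reading of 65535, while a natural logarithm remains possible. Array medians lay between -0.003 and 0.004. As deposited, the dye-swapped arrays correlated at -0.61 (pair 1), -0.74 (pair 2) and -0.83 (pair 3). Arrays with the mutant in Cy3 were turned, taking red over green. The direction is called likely: Spry4 (1.38) and Tpbg (1.96), up-regulated according to the published title, then lay above 0.

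The platform annotation named 22941 probes with 1 gene each, and 0 symbols changed against the RefSeq table of GRCm38.p6. Probes of a gene were averaged, then the arrays of a pair. A limma 3.58.1 intercept model over the 3 pairs was used (lmFit, eBayes; R 4.3.3), two-sided, with Benjamini-Hochberg adjustment over 30649 features. Degrees of freedom were 2 (residual) and 1.80 (prior), the median SE was 0.055, and the small number of arrays limits the precision. The model was also run on noise simulated from its own fitted spread with shifts added, and no result here rests on that run. All 90 members are accounted for; array values are given for the 12 highest and 12 lowest means and the 6 lowest p, other members being chosen after their values were seen. From each list, up to 4 genes with the lowest p could be named. The members and lists were chosen with earlier results of these data known. Alternatives were centring, scaling, single probes, 1 dye orientation, arrays unaveraged or blocked by pair, named genes only, and leaving out each pair.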

Additional observations from a re-analysis of the deposited data

Results flagged for a closer look

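Among 92 results, 3 had a single array far from the other 5. Cyp2j13 lay at 0.817 in pair 2 with the mutant in Cy5, while its other arrays lay between -0.05 and 0.05. Cyp2r1 lay at 0.732 in pair 3 with the mutant in Cy5, against -0.08 to 0.21 on the others. Cyp26a1 reached -0.113 on the pair 2 array whose mutant RNA carried Cy3, against -0.01 to 0.01. In each of the 3 the exchanged array of the same RNA did not repeat the value. About 1 group in 20 would be picked out by chance if arrays were independent, which dye-swapped arrays of shared RNA are not.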

How the results depend on the processing

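Of 90 members, 0 were called under each of the 11 alternatives. The lowest adjusted p of a member was 0.0795, for Cyp2f2, with the 6 arrays taken as independent, a setting that called 67 of all features higher and 41 lower. With the pair as a random block it was 0.123, again for Cyp2f2, with 44 and 17 features called, against 2 and 0 as reported. Scaled arrays, single probes, the mutant in Cy5 only and each omitted pair called 0 features, and the mutant in Cy3 only called 1. The P450 median ran from 0.07 to 0.08 with 1 dye orientation and from 0.03 to 0.09 with a pair left out. The glutathione transferase median ran from -0.02 to -0.01 with 1 orientation and from -0.17 to 0.08 with a pair left out. With a pair left out, the mean of Cyp2s1 ran from -0.477 (without pair 2) to 0.034 (without pair 3) and that of Cyp4f13 from -0.251 (without pair 1) to 0.007 (without pair 3), against -0.30 and -0.16 with all pairs. The other members among the 12 highest, 12 lowest and 6 lowest p kept their sign under all 11 alternatives, but not their size. Without pair 2, Cyp2c37 had 0.115 against 0.782, Cyp2a12 0.066 against 0.465, Cyp2c50 0.108 against 0.507, Cyp3a25 0.226 against 0.640, Cyp4f39 -0.184 against -0.416, and Cyp4a10, Cyp8b1 and Cyp2d9 0.480, 0.240 and 0.288 against 0.879, 0.562 and 0.580. Without pair 3, Cyp4b1 had -0.026 against -0.144, Cyp4v3 -0.050 against -0.20 and Cyp2d34 -0.047 against -0.195. Without pair 1, Cyp2d34 had -0.440, Cyp4f39 -0.803 and Cyp3a13 -0.352 against -0.190. Among all 90, 11 changed sign with the mutant in Cy5 only, 9 in Cy3 only, and 9, 19 and 12 without pairs 1, 2 and 3. Without pair 1, 11 members were higher and 11 lower at an unadjusted 0.05, against 6 and 4 with all pairs. Signal over background was not used here, so members without signal cannot be told from unchanged ones.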
